A study of Mactra quadrangularis with 6 samples.

Results

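The genes described here are 231 abundant mantle genes that carry no description, out of 25145 genes in the deposited table. A gene was taken when its description cell was blank and its FPKM value (fragments counted, scaled for the length of the gene model and the depth of the library) averaged at least 50 over all 6 libraries. Because that average chose the genes, their abundance is given as a description and is not tested. The libraries are bulk messenger RNA of mantle tissue from a surf clam that the labels name Mactra quadrangularis and the design text Mactra veneriformis. The labels give 3 libraries to an acidification stress group and 3 to a control group, and give no genotype, age, dose, pH or duration. In the submitters' design text the stressed groups are said to be at high pH. That contradicts the group's name, so acidified and control are used only as names. The same text speaks of clams of different shell colours but does not say which colour these libraries came from. Nothing states that each library is a separate animal, so a p-value here reflects the spread of these 6 samples, and that spread may be technical only.

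The mantle is the molluscan tissue that lays down the shell. Its outer epithelium secretes an organic matrix of proteins, chitin-binding factors and pigments into the space beneath the shell, where mineral is deposited. Proteins of that matrix differ widely between molluscan lineages, and many have no recognisable relative outside a narrow group, which is why an abundant mantle gene with no match is a candidate for such a protein. The deposited table holds no sequence, so a signal peptide, a repeat or a relative could not be looked for, and whether any of the 231 genes encodes a secreted protein was not tested.

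Total counts ran from 28482358 to 37066703 per library, so counting error is small at these levels and the spread between libraries limits the precision. The scaling factors by which edgeR's TMM method adjusts library sizes were 0.987, 0.853 and 0.849 in the acidified libraries and 1.09, 1.08 and 1.19 in the control libraries. These factors do not overlap between the groups, and their part in the differences was not tested. FPKM values carry no such adjustment while the fold changes do, so a gene with like FPKM values in both groups has a fold change above 0. Whether the groups of a named gene overlap is judged on FPKM unless TMM-scaled values are named. Over all 17790 genes tested the median log2 fold change was -0.0031 with TMM and -0.33 with library sizes alone, and for the 231 genes it was 0.34 and 0.025. Relative to that shift the 231 genes lay 0.34 and 0.35 higher. In a bulk tissue, fewer cells of a type and less RNA per cell cannot be told apart.

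Genes without a description were 16.1% of the whole table and 19.7% of its 1174 genes at or above 50 FPKM. The threshold was reached by 5.71% of the 4047 undescribed genes and by 4.47% of described genes. At 1000 FPKM and above, 19 undescribed genes stood beside 113 described ones, a share of 14.4%, which is below that of the whole table. All 231 genes passed the low count filter of the fit.

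The 231 genes were unequal in abundance. Their mean FPKM values ran from 50.4 to 13153 with a median of 159, and they summed to 108482. The 10 most abundant held 41.6% of that sum, and 15 genes held 50%. By contrast the 78 genes under 100 FPKM held only 5.07%. A sum over the set is therefore mostly a sum over its first 15 genes.

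**Figure D1:**
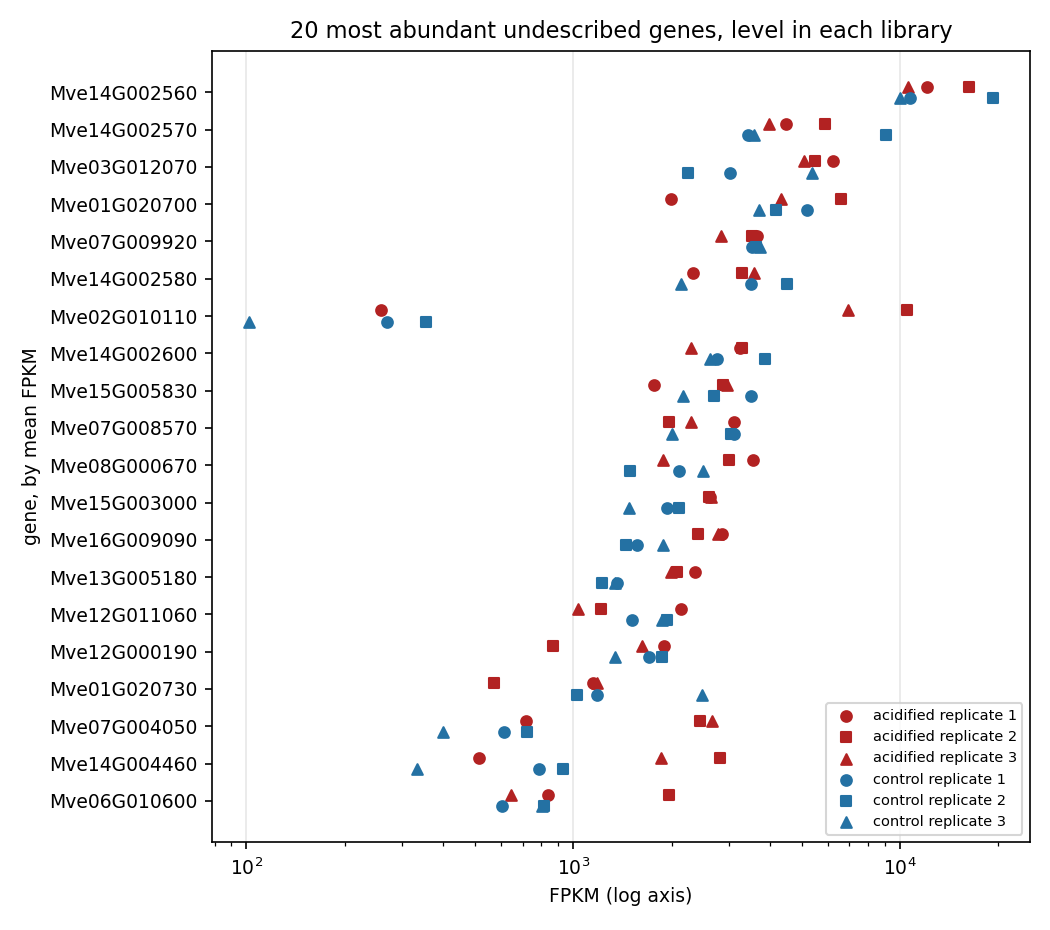
FPKM of the 20 most abundant undescribed genes (log axis), 1 point per library, acidified in red and control in blue, with a marker shape for each replicate. Mve14G002560 lies above the other 19 in every library, and Mve02G010110 is spread from 102 to 10489 FPKM.

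As a share of the summed FPKM of a library, the 231 genes took 16.0%, 19.4% and 17.2% in acidified libraries 1 to 3 and 16.0%, 18.2% and 15.6% in control libraries 1 to 3. The groups overlapped, at 17.5% ± 1.74 against 16.6% ± 1.40 (SD, n = 3 each; exact two-sided permutation p = 0.6, and the smallest p that 3 against 3 allows is 0.1). Their share of the counts was 13.3% ± 1.39 in acidified and 11.5% ± 0.967 in control libraries (SD, n = 3; exact permutation p = 0.2). Neither share differed beyond the spread between libraries. The 943 described genes at the same threshold took 69.1% ± 1.13 against 66.0% ± 1.19 of summed FPKM (SD, n = 3; exact permutation p = 0.1).

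The most abundant of the genes was Mve14G002560, on the minus strand of chromosome 14 at 8542446 to 8546815, second in rank over the whole table. Its FPKM was 12095, 16308 and 10585 in acidified libraries 1 to 3 and 10762, 19193 and 9976 in control libraries 1 to 3. The highest and the lowest value were both in the control group, and the groups overlapped. It took 1.93% of a library's summed FPKM on average over acidified libraries and 2.22% over control libraries (exact permutation p = 0.7, n = 3).

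That gene opens the longest run of such genes on the assembly, 5 undescribed abundant genes with no other gene between them, spread over 94.7 kb of chromosome 14 up to 8637136. Together these 5 genes made up 22.7% of the summed abundance of all 231. The first is on the minus strand and the other four are on the plus strand. Their gene models, whose lengths were recovered from the ratio of counts to FPKM, measured 453, 1113, 561, 474 and 561 bases.

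The second gene of the run, Mve14G002570, had FPKM values of 4494, 5908 and 3965 in acidified libraries and 3432, 9080 and 3572 in control libraries. Mve14G002580, next in order,, had 2333, 3281 and 3582 against 3502, 4505 and 2132. Last in order, Mve14G002600, had 3232, 3296 and 2289 against 2764, 3876 and 2624. In these genes as in Mve14G002560 the highest value was in control library 2, and the groups overlapped in all of them. Mve14G002580 and Mve14G002600 have models of equal length, 561 bases, and if they are near-identical copies the division of reads between them is uncertain. The fourth gene, Mve14G002590, was far less abundant, at 95.8, 174 and 271 against 201, 277 and 263 FPKM.

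The run ended sharply on both sides. The gene before it, Mve14G002550, also lacks a description and averaged 0.0898 FPKM. The gene after it, Mve14G002610, is described as a 70 kDa neurofilament protein-like gene and averaged 13.02 FPKM. Those flanks were read after the values were seen.

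**Figure D2:**
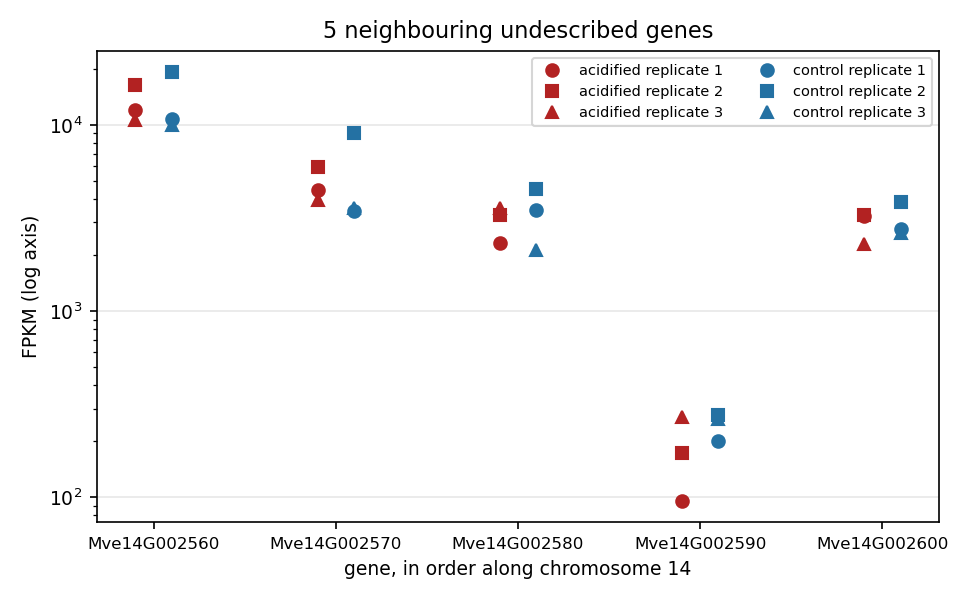
FPKM (log axis) of the 5 undescribed neighbours on chromosome 14, in gene order, 1 point per library, acidified in red and control in blue. Values run from 95.8 FPKM in Mve14G002590 to 19193 in Mve14G002560, and red and blue points overlap in each gene.

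Neighbouring pairs of this kind occurred elsewhere too. In all, 58 of the 231 genes (25.1%) lay in 25 runs of at least 2, of which 20 were pairs and 18 had all genes on 1 strand. Among the 943 described abundant genes, 168 (17.8%) lay in 78 runs of at most 3 genes, 44 of them on 1 strand. No test was made of how genes cluster. Within 100 kb of another gene of their own set lay 33.3% of the undescribed and 36.4% of the described abundant genes.

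In the next 4 runs by summed abundance, 1 gene was more abundant than the other. On chromosome 7, Mve07G008570 (933 bases) had 3102, 1963 and 2291 FPKM in acidified and 3115, 3036 and 1999 in control libraries, and Mve07G008580 (876 bases, intronless) had 205, 146 and 149 against 145, 369 and 27.6. On chromosome 15, Mve15G005830 (2090 bases) had 1768, 2878 and 2947 against 3508, 2698 and 2167 FPKM, and Mve15G005840 (3157 bases, opposite strand) had 25.1, 49.9 and 131 against 69.4, 59.4 and 44.8. In all 4 of these genes the groups overlapped.

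The other pair on chromosome 15 held Mve15G003000, a model of 432 bases. Its FPKM was 2619, 2606 and 2645 in acidified libraries and 1943, 2107 and 1480 in control libraries. Every acidified value lay above every control value, with a log2 fold change of 0.84 ± 0.21 (SE; edgeR adjusted p = 0.145, DESeq2 adjusted p = 0.0102). Its neighbour Mve15G003010 had 66.1, 59.8 and 47.6 against 81.5, 118 and 51.0 FPKM, so the groups overlapped there.

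On chromosome 13, Mve13G005180 lies on the same strand as Mve13G005190 within 9.08 kb. The second of them had 436, 331 and 460 FPKM in acidified and 408, 418 and 388 in control libraries, which overlap. The first was among the genes with the smallest p-values and is described with them. A run of 4 genes on 1 strand of chromosome 5, Mve05G014230 to Mve05G014260, follows a gene described as a CUB domain-containing protein, Mve05G014220. CUB domains are found in many extracellular proteins. That run was picked out after its values were seen.

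Over whole chromosomes the genes were spread widely. The 19 chromosomes all held some, and 1 gene lay on another contig. Chromosome 1 held the most, with 22, followed by chromosome 4 with 19. As a share of the genes on a chromosome they ranged from 0.472% on chromosome 6 to 1.61% on chromosome 15. Chromosome 14 held only 14 of them but a summed mean abundance of 27406 FPKM, through its run.

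The undescribed genes had shorter models than described genes of like abundance. Their median model length was 1005 bases (interquartile range 641 to 1671, full range 162 to 4644), against 1366 bases in described abundant genes (783 to 2318). Over the 10802 tested genes with a recovered length the median was 2037.5 bases. Models under 600 bases made up 22.1% of the undescribed abundant genes, 14.3% of described abundant genes and 4.61% of tested genes with a length. Undescribed genes under 50 FPKM had a median of 1477 bases, and a length could be recovered for 972 of 3816. A length needs at least 200 counts, and at a given FPKM a shorter model has fewer counts. All 231 undescribed and all 943 described abundant genes had a length, but only 10802 of 17790 tested genes did. Short models are thus left out more often from the tested genes and from undescribed genes under 50 FPKM, which raises their medians.

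FPKM divides by model length, so a threshold on it favours short models, and this bears on the comparison with all genes but not on that with described genes chosen by the same threshold. A model need not equal the transcript, since an annotation can leave out the untranslated ends. Of the model lengths, 49.4% were whole multiples of 3 among the undescribed abundant genes and 50.2% among the described ones, against 34.0% over all lengths. For 7 undescribed abundant genes (3.03%) the model was shorter than the 300 bases that the labels give as the mean insert, and 20 described ones (2.12%) shared this. FPKM values of such short models are uncertain.

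**Figure D3:**
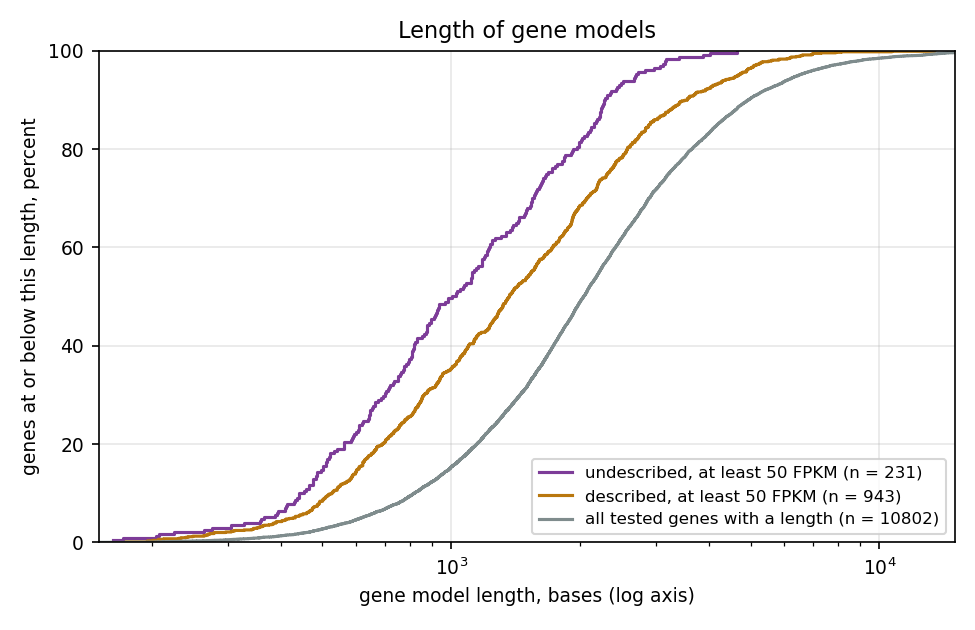
Cumulative percent of genes at or below each gene model length (bases, log axis), for the 231 undescribed abundant genes, the 943 described abundant genes and 10802 tested genes with a recovered length. The medians are 1005, 1366 and 2037.5 bases.

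Some models held no intron. A gene was called intronless when its model length all but equalled its span on the assembly. By that measure 15 of 231 (6.49%) were intronless, against 2.97% of described abundant genes and 4.49% of the 10802 tested genes with a recovered length. Among the 972 undescribed genes under 50 FPKM with a recovered length the share was 9.77%. The median span was 5359 bases in the undescribed and 7944 in the described abundant genes.

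The 3 shortest models were those of Mve02G009030 (162 bases, chromosome 2 at 27761970 to 27762131, intronless), Mve03G012070 (171 bases) and Mve15G008670 (204 bases, intronless). Mve02G009030 had 77.1, 52.9 and 60.7 FPKM in acidified and 53.0, 57.0 and 53.7 in control libraries. Its groups overlapped in FPKM, since acidified library 2 had the lowest value of all, and the TMM-scaled log2 fold change was 0.55 ± 0.21 (edgeR adjusted p = 0.243). Mve15G008670 had 172, 144 and 161 against 137, 131 and 125 FPKM. Its groups did not overlap, with a log2 fold change of 0.62 ± 0.18 (edgeR adjusted p = 0.165, DESeq2 adjusted p = 0.0373).

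None of the 3 longest models had an edgeR p under 0.05 before adjustment. Mve15G006860 (4644 bases) had 84.2, 40.2 and 32.6 FPKM in acidified and 38.0, 125 and 53.8 in control libraries. Mve11G000450 (4010 bases) had 156, 212 and 163 against 281, 273 and 352. Mve06G012920 (3873 bases) had 171, 124 and 157 against 183, 161 and 256. Of these, Mve11G000450 was lower in every acidified library than in any control library in FPKM, and in the other two the groups overlapped.

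Annotation terms were almost absent from these genes. None of the 231 carried a gene ontology term, whereas 774 of the 943 described abundant genes did. Of all 4047 undescribed genes, 10 had such a term. A single abundant undescribed gene had a pathway term, Mve17G003770, which is placed in oxidative phosphorylation, the respiratory chain of mitochondria. This gene also carries the KEGG orthology entry K02272, so a blank description need not mean that a gene has no known relative. Its model is 207 bases long, and its FPKM was 542, 487 and 642 in acidified and 506, 392 and 358 in control libraries. The groups overlapped in FPKM, and the log2 fold change was 0.75 ± 0.23 (edgeR adjusted p = 0.185, DESeq2 adjusted p = 0.0492).

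Some of the genes sit beside a described gene from a list of word matches for shell matrix proteins, lectins, protease inhibitors, C1q-domain proteins and other kinds. A match does not show that the protein is secreted by mantle cells. Of the 231, 7 (3.03%) had such a neighbour, against 1.96% of the 917 described abundant genes and 2.02% of the 24840 genes that are not themselves in the list, so the shares are close and rest on few genes. Mve12G011060, at a mean of 1620 FPKM, lies next to Mve12G011050, described as Perlucin, a lectin known from abalone nacre, which averaged 52.7 FPKM. Mve15G005270, at 282 FPKM, lies next to Mve15G005280, described as Insoluble matrix shell protein 1, at 156 FPKM. In the other pairs the level of the neighbour varied. Mve08G000670, the most abundant of the 7 at 2422 FPKM, lies next to Mve08G000680, described as C1q tumor necrosis factor-related, at 0.201 FPKM. The remaining neighbours, a chitinase-3-like, a kunitz-type inhibitor, a C1q-like and a SCUBE-type gene, averaged 24.2, 2.03, 57.2 and 4.67 FPKM. These neighbours were read after the values were seen.

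The study's comparison is between mantle of acidified and of control clams. In edgeR's quasi-likelihood test no gene of the 231 reached an adjusted p under 0.05, and the background was the same, with 0% of 17790 genes called. Among the 231 the lowest adjusted p was 0.118, which 7 of them had. Before adjustment, 75 of the genes had p under 0.05 and were higher in the acidified libraries, which is 32.5% beside a background of 9.29%, and 7 were lower, 3.03% beside 8.13%. Described abundant genes had 33.9% higher and 2.76% lower, so the shares were near those of described genes of like abundance. Without control library 3 the count of higher genes was 48, and the share over all genes in that fit was not computed. DESeq2, the other count test, called 49 of 230 genes higher at an adjusted p under 0.05, 21.3% beside a background of 4.85%, and 2 lower, 0.87% beside 3.57%. Described abundant genes had 22.1% and 0.955%.

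Large differences made up a greater share of the undescribed than of the described abundant genes, which was not tested. Some genes reached a mean of 50 FPKM only through the group where they were high, so their difference follows in part from that choice. Mve03G012100 is such a gene, at 11.5, 59.5 and 215 FPKM in acidified and 14.7, 10.3 and 3.12 in control libraries. How many genes of either set this concerns was not counted, so the shares of 2-fold differences are given as a description. A difference of at least 2-fold, whatever its p, was seen in 40 genes (17.3%) that were higher, beside a background of 7.81%, and in 6 (2.6%) that were lower, beside 8.93%. Described abundant genes had 7.64% and 0.636%. At an unadjusted edgeR p under 0.05 and at least 2-fold, 35 (15.2%) were higher beside a background of 3.56%, and 2 (0.866%) were lower beside 3.86%. The described abundant genes had 7% and 0.53%. On TMM-scaled values the groups did not overlap in 60 genes (26%) that were higher, beside a background of 12.2%, and in 6 (2.6%) that were lower, beside 13.4%. Described abundant genes had more of these, 38.7% and 3.61%.

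The median log2 fold change of the 231 genes was 0.34 (interquartile range -0.01 to 0.81), against 0.36 in described abundant genes, and 171 of 231 (74%) lay above 0, against 49.8% of all genes tested. That direction depends on the scaling. With library sizes alone, 34 of the genes had an edgeR p under 0.05 before adjustment and were higher, 14.7% beside a background of 3.24%, and 22 were lower, 9.52% beside 17.7%. Described abundant genes then had 16% and 9.86%. In FPKM, without TMM, the groups did not overlap in 28 genes (12.1%) that were higher, beside a background of 4.68%, and in 20 (8.66%) that were lower, beside 26.1%. Described abundant genes had 17.9% and 14.7%. The median difference of the 231 genes on the log2(FPKM + 1) scale was -0.0073. Across all genes short models had the higher fold changes, and with that trend removed the median was 0.17 in the undescribed and 0.25 in the described abundant genes. The same step took the log2 fold changes of the short models Mve02G009030, Mve15G008670, Mve17G003770 and Mve03G012070 to 0.048, 0.15, 0.28 and 0.52.

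**Figure D4:**
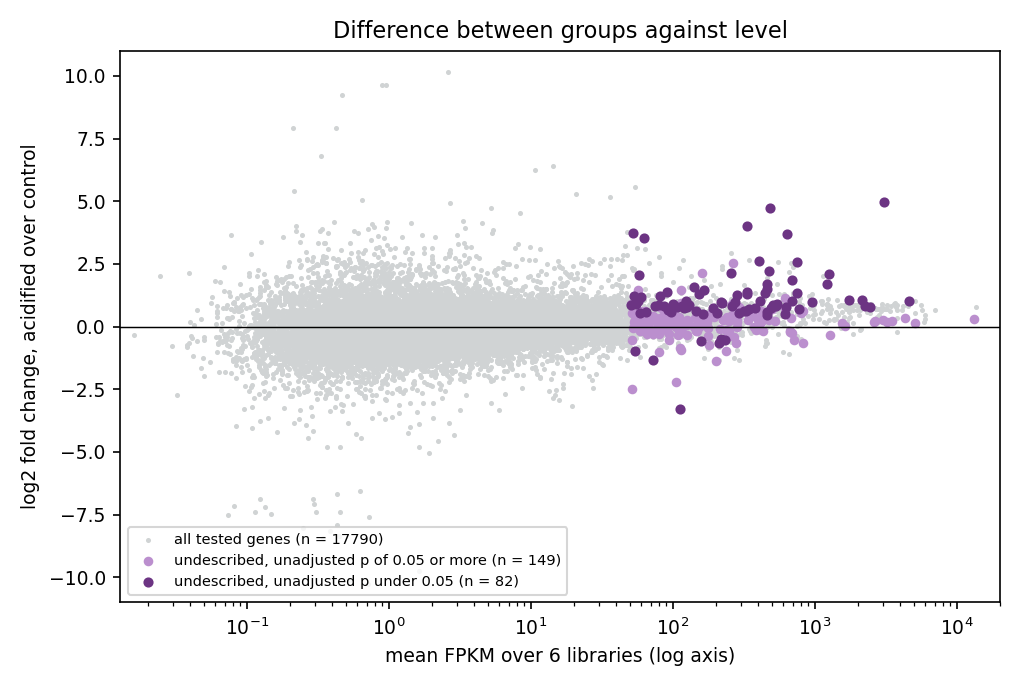
Log2 fold change (acidified minus control, edgeR) against mean FPKM over the 6 libraries (log axis) for 17790 tested genes in grey and the 231 undescribed abundant genes in purple, dark where the unadjusted p is under 0.05. The undescribed genes lie mostly above 0, with a median of 0.34, and none has an adjusted p under 0.05.

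The lowest p-values were in genes whose groups lay well apart relative to their replicates. Mve13G005180 (chromosome 13 at 16728242 to 16731245, 761 bases) had 2362, 2083 and 1987 FPKM in acidified and 1362, 1230 and 1338 in control libraries. All acidified values were above all control values, at 2144 ± 194 against 1310 ± 70.5 (SD, n = 3), with a log2 fold change of 1.05 ± 0.15 (edgeR adjusted p = 0.118, DESeq2 adjusted p = 2.66e-08). Mve16G009090 (chromosome 16 at 25521605 to 25523864, 621 bases) had 2851, 2409 and 2773 against 1569, 1453 and 1887. Its groups did not overlap either, with a log2 fold change of 1.06 ± 0.16 (edgeR adjusted p = 0.118, DESeq2 adjusted p = 2.73e-06).

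Mve01G020760 (chromosome 1 at 67505823 to 67512488, 1190 bases) had 1197, 761 and 1130 FPKM in acidified and 422, 408 and 231 in control libraries. Its groups were well apart, with a log2 fold change of 1.86 ± 0.32 (edgeR adjusted p = 0.118, DESeq2 adjusted p = 3.09e-06). It lies close to Mve01G020700 (225 bases, at 67408126 to 67409076), the fourth in abundance among the undescribed genes, which had 1989, 6584 and 4316 against 5206, 4168 and 3705 FPKM. In that gene the groups overlapped, and acidified libraries 1 and 2 were its lowest and highest. Between them lies Mve01G020730, picked out after its values were seen, with 1152, 574 and 1181 against 1182, 1026 and 2483 FPKM, so 3 abundant undescribed genes of 1 region differed in their pattern over the libraries.

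The remaining genes higher in acidified libraries under the naming rule were less abundant. Mve15G005780 (968 bases) had 333, 421 and 348 against 193, 220 and 168 FPKM. Mve11G011300 (646 bases) had 263, 223 and 112 against 70.0, 76.5 and 103. Mve12G005340 (392 bases) had 89.1, 120 and 105 against 54.9, 65.3 and 49.0. In all 3 the groups did not overlap, with log2 fold changes of 1.26 ± 0.22, 1.59 ± 0.30 and 1.23 ± 0.24 (edgeR adjusted p = 0.118 for each), although acidified library 3 of Mve11G011300 was only just above control library 3.

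Mve03G012070, at 171 bases the second shortest model and the third in abundance, lies on chromosome 3 at 39614053 to 39615603. Its FPKM was 6243, 5477 and 5093 in acidified and 3011, 2249 and 5380 in control libraries. Control library 3 lay within the acidified range, so the groups overlapped in FPKM, with a log2 fold change of 1.02 ± 0.28 (edgeR adjusted p = 0.160, DESeq2 adjusted p = 0.0169). Mve07G009920 (657 bases), the fifth in abundance, was steadier, at 3639, 3532 and 2831 against 3533, 3619 and 3718 FPKM.

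At an unadjusted edgeR p under 0.05 with TMM, 7 genes (3.03% beside a background of 8.13%) were lower in acidified libraries. With library sizes alone 22 (9.52% beside 17.7%) were, so the count depends on the scaling. Mve03G015520 (chromosome 3 at 52193591 to 52211282, 1748 bases) had 35.4, 38.1 and 29.6 FPKM in acidified and 96.1, 84.6 and 153 in control libraries. The groups lay apart, with a log2 fold change of -1.34 ± 0.23 (edgeR adjusted p = 0.118, DESeq2 adjusted p = 4.25e-05). Its acidified values were all under the threshold of 50 FPKM. It is thus in the set only through the control group, where it is high, and its difference is given as a description. Mve06G015550 (1818 bases) had 161, 140 and 124 against 246, 293 and 306, again with no overlap, and a log2 fold change of -0.66 ± 0.16 (edgeR adjusted p = 0.142, DESeq2 adjusted p = 0.00597).

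A pair of neighbours on 1 strand of chromosome 8 was lower together. Mve08G006010 (510 bases) had 176, 171 and 122 FPKM in acidified and 264, 301 and 269 in control libraries, and Mve08G006020 (831 bases) had 198, 149 and 143 against 254, 353 and 291. The groups did not overlap in either gene, with log2 fold changes of -0.50 ± 0.19 and -0.55 ± 0.20 (edgeR adjusted p = 0.243 and 0.231, DESeq2 adjusted p = 0.125 and 0.106). Mve09G007710 (1438 bases) had 101, 138 and 91.6 against 187, 179 and 256 FPKM, without overlap, at -0.56 ± 0.22 (edgeR adjusted p = 0.257).

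Another neighbouring pair, on chromosome 9, was split within the control group. Mve09G003770 (2291 bases) had 2.39, 14.9 and 31.3 FPKM in acidified libraries and 303, 12.5 and 314 in control libraries. Its log2 fold change was -3.27 ± 1.24 (edgeR adjusted p = 0.243), and it rests on control libraries 1 and 3, since control library 2 fell within the acidified range. Mve09G003770 is also in the set only through control libraries 1 and 3. Its neighbour Mve09G003760, picked out after its values were seen, was split likewise at 7.58, 52.2 and 28.5 against 221, 16.4 and 301 FPKM. Their models are close in length, 2291 and 2305 bases, and if they are close copies the division of reads between them is uncertain.

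The undescribed genes varied more between libraries than described genes of like abundance, a description with no test. The highest library exceeded the lowest by a median of 2.34-fold in the undescribed and 1.76-fold in the described abundant genes. A range of at least 10-fold occurred in 24 of the 231 genes (10.4%) and in 20 of the 943 described ones (2.12%). The median coefficient of variation among acidified libraries was 26.7% and among control libraries 24.96%, against 16.5% and 15.7% in described abundant genes.

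Of the 24 widely varying genes, 11 were highest in acidified library 2, 4 in acidified library 3 and 6 in control library 3, and the other libraries were highest in 1 gene each. Acidified library 2 was also the highest in 12 of the 20 described genes with such a range, and control library 3 in 1. Mve02G010110 (896 bases, chromosome 2 at 30830283 to 30834265) is the most abundant, with 259, 10489 and 6929 FPKM in acidified and 270, 354 and 102 in control libraries. Its log2 fold change of 4.97 ± 1.24 (edgeR adjusted p = 0.144, DESeq2 adjusted p = 0.00361) was the greatest of the 231 and rests on acidified libraries 2 and 3, while acidified library 1 lay among the controls.

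A like pattern was seen in other genes, picked out after their values were seen. Mve13G000560 had 48.5, 1027 and 1673 FPKM against 58.5, 41.4 and 38.3, Mve03G000990 had 112, 2590 and 737 against 162, 108 and 75.9, and Mve05G002770 had 192, 2341 and 1138 against 289, 365 and 142. Mve01G002030 had the widest range of all, 157-fold, with 55.0, 1557 and 248 against 9.91, 122 and 13.7. In 7 of the undescribed abundant genes (3.03%) acidified libraries 2 and 3 were both at least 2-fold above the highest control while acidified library 1 was below it, and in 11 of the described ones (1.17%). These 7 lie on 6 chromosomes. Mve07G004050, another of them, had 718, 2435 and 2663 against 613, 722 and 401 FPKM.

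**Figure D5:**
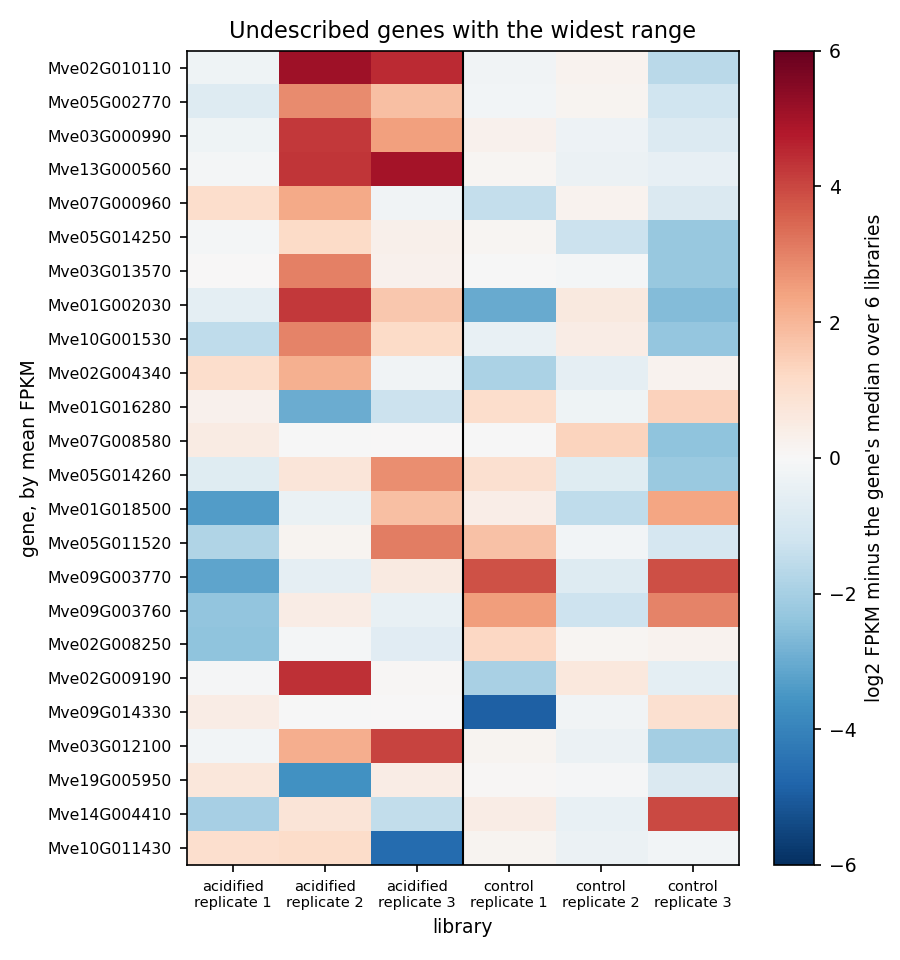
Log2 FPKM of the 24 undescribed genes with at least a 10-fold range, as a colour for each library relative to the gene's own median over the 6 libraries. Acidified library 2 is the highest in 11 of them and control library 3 in 6.

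The FPKM threshold of 50 cut through a continuous range. Just inside it lay Mve14G004410 at 51.3, Mve10G011430 at 51.0 and Mve16G003060 at 50.4 FPKM, and just below it Mve07G001690 at 49.6, Mve01G014790 at 49.5 and Mve01G021040 at 49.4. Mve14G004410 is inside only through control library 3, with 3.87, 26.3 and 5.68 FPKM in acidified and 21.4, 11.3 and 239 in control libraries. Mve10G011430 had 87.7, 94.4 and 1.80 against 49.3, 33.9 and 38.6, so it was almost absent from acidified library 3 and at its highest in the other two. Mve16G003060 had a narrower range, with 62.4, 51.1 and 63.1 against 38.6, 29.8 and 57.1 FPKM. It is in the set only through the acidified group, where it is high, so its difference is given as a description. Its log2 fold change was 0.85 ± 0.24 (edgeR adjusted p = 0.165, DESeq2 adjusted p = 0.0313).

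A list of described genes was made by matching words for shell matrix proteins and other kinds, among them ferritin. Such a match does not show that a protein is secreted by mantle. The 305 genes of the list were set beside the undescribed ones. Of the 167 that were tested, 23 (13.8%) had an edgeR p under 0.05 before adjustment and were higher, and 17 (10.2%) were lower, beside the backgrounds of 9.29% and 8.13%, with a median log2 fold change of 0.04. Only 26 reached 50 FPKM, of which 9 (34.6%) were higher and 0 lower by the same measure, near the 33.9% of all described abundant genes, with a median of 0.58. The most abundant was a ferritin, Mve08G009170, an iron-storage protein, at 13623 FPKM. The next of the list were all under 500 FPKM, among them a tyrosinase, Mve11G003960, at 397, and an insoluble matrix shell protein 5-like gene, Mve14G013510, at 356. Tyrosinases oxidise phenols and are known from shell pigment and periostracum. At or above 1000 FPKM the list had 1 gene, that ferritin.

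The tissue label was checked against markers. Of 55 genes listed for secretory cells of the mantle, 4 were at 0 in all libraries, and their summed level was 944 to 1196 FPKM in acidified and 920 to 1169 in control libraries. Markers of muscle summed to 3888 to 6615 FPKM against 5091 to 8434, those of ciliated cells to 3210 to 3972 against 3451 to 3704, and those of haemocytes to 275 to 324 against 288 to 373, so other cell types contributed to the libraries. Of 21 muscle markers tested, 0 had an edgeR p under 0.05 before adjustment and were higher, and 6 (28.6%) were lower. Of 64 ciliary markers tested, 12 (18.8%) were higher and 3 (4.69%) were lower by that measure. Over all genes tested the shares were 9.29% higher and 8.13% lower. Digestive gland markers summed to 700 to 884 against 805 to 1135 FPKM and germ line markers to 14.1 to 22.9 against 18.0 to 23.0. The groups did not overlap for mucous gland markers, at 293 to 352 against 471 to 552 FPKM, nor for neuronal markers, at 43.7 to 55.5 against 64.1 to 70.0. Of 20 mucous gland markers tested, 1 (5%) was higher and 7 (35%) were lower at an unadjusted edgeR p under 0.05. By that measure 1 (2.78%) of 36 neuronal markers tested was higher and 1 (2.78%) lower. Of 26 mantle secretory markers tested, 4 (15.4%) were higher and 0 lower. The marker sums are FPKM without TMM, and on that scale 26.1% of all genes tested were lower without overlap. The part of these cell types in the differences of the undescribed genes was not tested.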

How the data were processed

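Messenger RNA was measured in 3 acidified and 3 control mantle libraries. Per the labels' protocols, RNA was extracted with Trizol, selected on oligo(dT) beads and made into strand-marked paired-end libraries. Per the submitters' processing notes the tools were cutadapt 1.9, HISAT2 2.2.1, StringTie 2.1.6, DESeq2 and edgeR. A genome build was not given in the sources used here. The authors deposited whole-number counts and, per the file headers, FPKM values per gene and library. A further 12 columns match no listed sample and were not used.

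Counts were tested with edgeR 4.0.16 in R 4.3.3 (filterByExpr, TMM, quasi-likelihood fit of group, Benjamini-Hochberg adjustment over all 17790 genes left). The fixed design named this test for a table with counts. DESeq2 1.42.0 and limma 3.58.1 on log2(FPKM + 1) were alternatives, and the procedure was tested on simulated data. Fold changes carry a standard error derived from the test statistic. A model length was computed from count, FPKM and library total, calibrated on single-exon genes, for genes with at least 200 counts, and 77.1% of the 231 lengths fell within 0.15 of a whole base. Shares were compared by exact permutation over the 20 possible group assignments.

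Genes were named by a rule: the 10 most abundant, the 6 per direction with the smallest p, the 6 most abundant with a term (only 1 had one), the 3 longest and 3 shortest, the 3 on each side of the threshold, and the 5 most abundant runs. Fold changes are given for the 19 of these 37 genes with an unadjusted p under 0.05. The members, the lists of described genes and the rules were chosen with earlier results of these data known. Lists are word matches on the descriptions.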

Additional observations from a re-analysis of the deposited data

How the results depend on the processing

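The edgeR result depends on the tool: DESeq2 called 51 of the 231 genes and 1154 of all genes at an adjusted p under 0.05, where edgeR called 0, and 11 genes had an unadjusted DESeq2 p under 0.05 and were lower. With library sizes alone in place of TMM, 34 genes (14.7% beside a background of 3.24%) had p under 0.05 before adjustment and were higher. By that measure 22 (9.52% beside 17.7%) were lower, and the median log2 fold change was 0.0254. With limma on log2(FPKM + 1), or with 0.1 added, 31 were higher and 20 lower, with a median of -0.00728 or -0.00678, and without a filter 28 and 19, at -0.00728. With the threshold at 25 FPKM, 14 of 354 genes (3.95%) were lower, and with uncharacterized and hypothetical genes counted in, 141 of 434 (32.5%) were higher and 13 (3.00%) lower. These are close to the main shares, and the counts moved with the number of genes. Removing the length trend gave a median of 0.17. Causes were not tested. Leaving out each library in turn, 0 to 1 of the 231 genes and 0 to 2 of all genes passed, 48 to 81 were higher and 5 to 10 lower, and the median was 0.32 to 0.47. The 48 was without control replicate 3 and the 0.47 without control replicate 2. Without acidified replicate 1, Mve13G000560 had an edgeR adjusted p of 0.0321. That gene is in the set only through acidified libraries 2 and 3, and the library left out is the acidified one with control-like values, so this is no support for a difference. Deviations from the group mean had correlations of 0.0089, -0.0435 and -0.0067 between acidified and control libraries of the same replicate number. With 3 libraries a group this cannot show whether the numbers pair the samples. A replicate block gave 0 genes past the test, 61 higher, 6 lower and a median of 0.33. For limma, the left-out libraries, the replicate block and the unadjusted DESeq2 p, the shares over all genes were not computed. Whether those counts at an unadjusted p moved with the background cannot be told. The 19 named genes with an unadjusted p under 0.05 kept their sign under all 15 alternatives. They were picked by a low p in these same libraries, which the alternatives reuse, so the kept sign is no support for a difference. The shortest, Mve02G009030, went from 0.55 to 0.048 with the length trend removed. Of the other 18 named genes, 15 changed sign in at least 1 alternative, so no fold change is given for those 18.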
